A study of Mus musculus with 2 samples.

Results

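The proteasome genes are here the 51 protein-coding mouse genes of the RefSeq annotation of GRCm38.p6 whose symbol runs Psma to Psmg followed by a digit, out of the 21887 protein-coding genes placed on the autosomes and the X and Y chromosomes. The rule reads symbols and no measured value, though the group was picked for description with earlier results of these data known. Of these, 49 encode subunits, activators, an inhibitor or assembly chaperones, and 2, Psmc3ip and Psme3ip1, match the symbol rule as interacting proteins and are given apart. The study asked whether ALKBH5, known as an RNA m6A demethylase, occupies DNA, and used CUT&Tag, in which an antibody guides a transposase that cuts and tags the chromatin nearby. It has 2 libraries from the mouse hepatoma line Hepa1-6, both from cells exposed overnight to the adenovirus ad-FLAG-ALKBH5 according to their protocol text. One is the ALKBH5-FLAG reaction and the other the IgG reaction, whose antibody has no specific target and shows the assay's background. The treatment tag of the IgG library reads ALKBH6-FLAG infection, and the series text speaks of primary hepatocytes. Each group has 1 library, so no difference below has a replicate check and no test between libraries was made.

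The 26S proteasome degrades proteins that carry ubiquitin chains. Its core particle is a barrel of stacked rings of alpha subunits, which gate the entry, and beta subunits, some of which cut peptide bonds. A regulatory particle caps the barrel: its base holds a ring of ATPases that unfold substrates, and its lid removes ubiquitin. Other activators open the barrel without ubiquitin, and dedicated chaperones build base and core. Immune signals replace some beta subunits with immunoproteasome forms, and when proteasome activity falls, the transcription factor NRF1, encoded by Nfe2l1, is known to raise subunit genes together.

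An ALKBH5-FLAG peak lay in the gene or within 1 kb of it at 30 of the 51 proteasome genes (58.8%), and an IgG peak at 8 (15.7%). Over all protein-coding genes the same count gave 39.2% for ALKBH5-FLAG and 10.8% for IgG. With only peaks at a −log10 q of 5 or more, 19 proteasome genes (37.3%) had an ALKBH5-FLAG peak, against 23.7% of all genes. At that setting 1 proteasome gene (1.96%) had an IgG peak, against 2.89%. The IgG share then lay below that of all genes, but a count of 1 is too small to order these shares. All 8 genes with an IgG peak also had an ALKBH5-FLAG peak, and 21 genes had neither. Genes with both or with neither were not counted over all protein-coding genes, so these 2 counts have no share to stand against. The classes ran from 7 of 9 base genes (77.8%), 6 of 8 lid genes (75%), 5 of 7 assembly chaperone genes (71.4%) and 4 of 6 activator and inhibitor genes (66.7%) to 4 of 8 alpha ring genes (50%) and 3 of 11 beta ring genes (27.3%). The beta ring was the class that lay below the share of all genes, and it had no IgG peak. The classes are small and the differences between them were not tested. The 51 genes were shorter than most, with a median length of 11600 bp against 17200 bp for all protein-coding genes, and how length or expression bears on the counts was not tested.

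**Figure D1:**
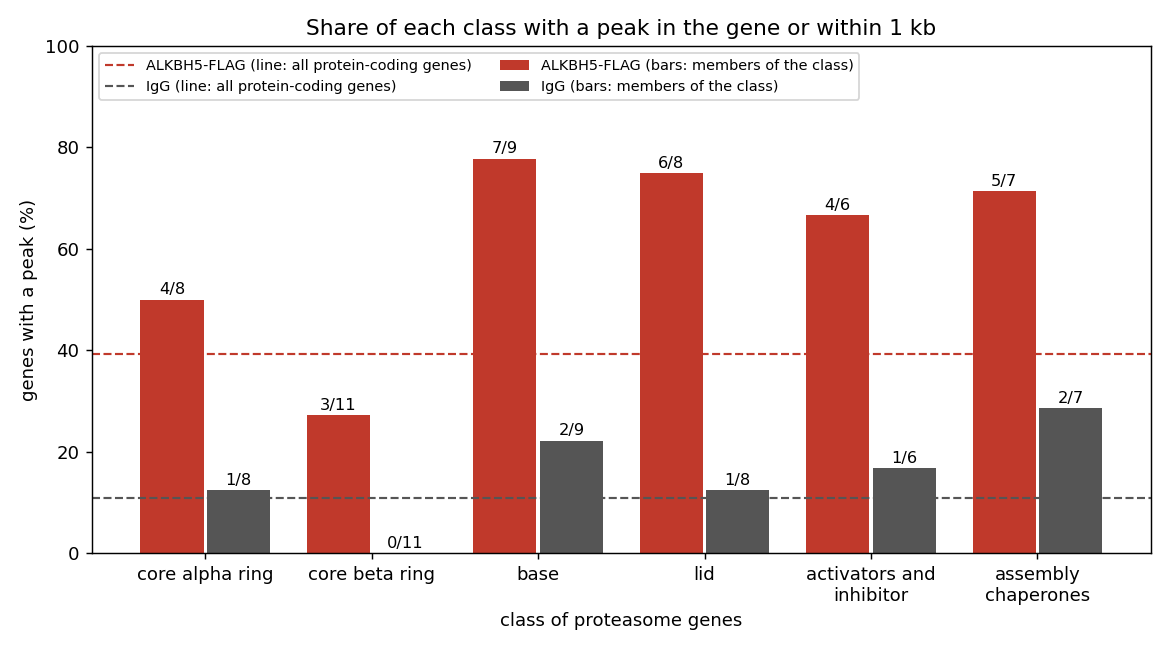
Percentage of genes with a peak in the gene or within 1 kb (vertical axis) for 6 classes of proteasome genes, ALKBH5-FLAG bars left of IgG bars, with counts above the bars and dashed lines for all protein-coding genes. The beta ring bar of ALKBH5-FLAG, at 27.3%, is the one below the 39.2% line, and the base and lid bars are the tallest.

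Promoter sequences of 5 members are shown because many of the peaks reach into promoters: the 4 members with the highest fold enrichment among those with at least 150 of the 300 promoter bases under the ALKBH5-FLAG peak, and Psmd5, the member with the highest IgG fold, whose peaks lie elsewhere in the gene. Each runs 5′ to 3′ on the gene's strand from 250 bases before to 50 bases after the transcription start, from RefSeq with build GRCm38.p6. Capitals mark matches, on either strand, to the motifs counted below: CCAAT boxes (printed as CCAAT or ATTGG) and, in Psma2 alone of these 5, the palindromic site of the factor nuclear respiratory factor 1, which is not the product of Nfe2l1. Psmb9 is at chr17:34187281-34187580 on the minus strand, Psme2 at chr14:55591052-55591351 on the minus strand, Psma1 at chr7:114276067-114276366 on the minus strand, Psma2 at chr13:14612992-14613291 on the plus strand and Psmd5 at chr2:34870913-34871212 on the minus strand.
Psmb9: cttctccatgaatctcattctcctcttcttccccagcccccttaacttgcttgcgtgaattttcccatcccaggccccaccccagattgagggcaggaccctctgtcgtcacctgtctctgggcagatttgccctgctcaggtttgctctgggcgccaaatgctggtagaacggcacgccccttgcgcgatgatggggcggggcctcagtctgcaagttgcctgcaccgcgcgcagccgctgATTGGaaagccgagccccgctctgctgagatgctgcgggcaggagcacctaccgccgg
Psme2: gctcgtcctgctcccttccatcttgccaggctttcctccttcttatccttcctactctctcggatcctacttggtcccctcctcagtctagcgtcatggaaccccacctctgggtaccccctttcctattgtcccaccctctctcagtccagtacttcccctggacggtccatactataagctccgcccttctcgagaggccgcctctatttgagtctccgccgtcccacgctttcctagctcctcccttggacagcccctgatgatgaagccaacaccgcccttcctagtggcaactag
Psma1: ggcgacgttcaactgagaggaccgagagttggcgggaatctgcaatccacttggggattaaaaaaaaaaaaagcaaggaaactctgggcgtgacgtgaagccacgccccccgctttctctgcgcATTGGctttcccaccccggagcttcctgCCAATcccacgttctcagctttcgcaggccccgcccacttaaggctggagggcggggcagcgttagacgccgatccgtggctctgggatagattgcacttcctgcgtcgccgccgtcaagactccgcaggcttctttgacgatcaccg
Psma2: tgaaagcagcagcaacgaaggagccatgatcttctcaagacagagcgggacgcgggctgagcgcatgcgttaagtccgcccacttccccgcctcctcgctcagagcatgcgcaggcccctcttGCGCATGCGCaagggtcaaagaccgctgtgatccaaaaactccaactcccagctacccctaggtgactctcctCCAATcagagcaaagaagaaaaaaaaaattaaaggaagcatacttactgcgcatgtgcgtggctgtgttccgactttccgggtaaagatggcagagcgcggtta
Psmd5: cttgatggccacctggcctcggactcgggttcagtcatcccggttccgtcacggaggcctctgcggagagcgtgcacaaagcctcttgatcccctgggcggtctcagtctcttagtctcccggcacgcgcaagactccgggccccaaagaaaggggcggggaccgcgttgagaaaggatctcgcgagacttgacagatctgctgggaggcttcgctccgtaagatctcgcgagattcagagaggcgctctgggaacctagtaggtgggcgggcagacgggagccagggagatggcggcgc

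Of these windows, ALKBH5-FLAG peaks covered 249 bases in Psmb9, 282 in Psme2, 269 in Psma1 and 198 in Psma2. IgG peaks covered the whole 300 bases in Psme2 and 35 in Psma1, and none in Psmb9 and Psma2. The ALKBH5-FLAG summits of Psmb9 and Psme2, 448 and 368 bp upstream of the starts, lay outside their windows. The Psmd5 window lay under no peak of either list. Psma1 holds 2 CCAAT boxes, Psmb9 and Psma2 hold 1 each, and the windows of Psme2 and Psmd5 match none of the motifs searched.

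Peak heights were low throughout, as they were in both lists at large. The authors' pileup, the number of fragments stacked at the summit, had a median of 9.5 over the 32 ALKBH5-FLAG peaks at proteasome genes (range 4 to 21) and of 4.5 over the 8 IgG peaks there (4 to 6). The medians over all 12333 ALKBH5-FLAG and all 3378 IgG peaks were 9 and 5. The authors' fold enrichment, the ratio of pileup to local background with 1 added to each, had a median of 6.42 at proteasome genes in the ALKBH5-FLAG list (4.03 to 9.62), against 5.63 over that whole list. For IgG the medians were 4.74 at proteasome genes and 4.79 over the whole list. The local background implied by these values had a median of 0.68 fragments over all ALKBH5-FLAG peaks and 0.168 over all IgG peaks, so pileups are not set against each other between libraries. Exact 95% Poisson intervals of the pileups cover counting error only, and the summit is the highest point of its peak. The interval of the tallest peak, at Psme2, runs from 13.0 to 32.1 fragments, and that of the lowest, at Psmd10, from 1.09 to 10.2. Psme2 and Psmb9 were the members whose ALKBH5-FLAG interval lay apart from that of Psmd10; no other pair of members had intervals that lay apart.

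**Figure D2:**
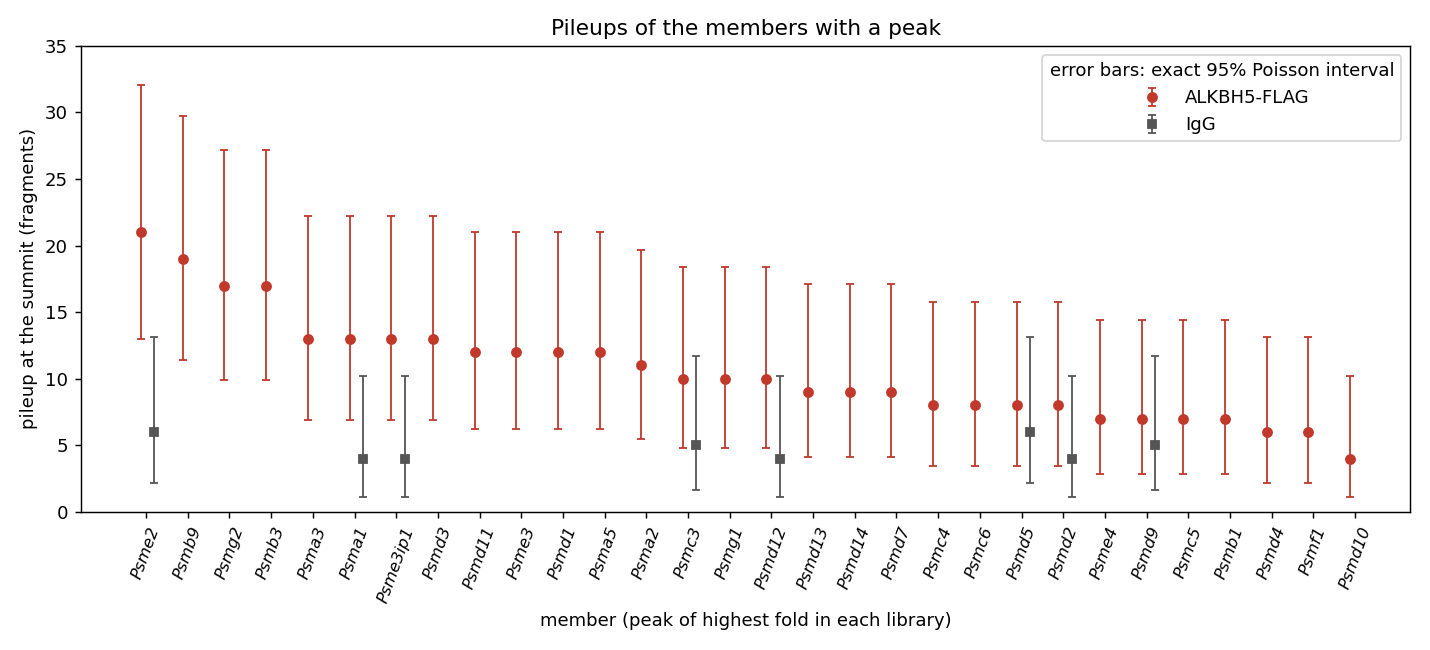
Pileup in fragments (vertical axis) of the peak of highest fold in each library for the 30 members with a peak, ALKBH5-FLAG as circles and IgG as squares, with exact 95% Poisson intervals as bars. Pileups range from 21 at Psme2 to 4 at Psmd10 for ALKBH5-FLAG, and most intervals overlap.

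In the alpha ring, Psma1, Psma2, Psma3 and Psma5 carried ALKBH5-FLAG peaks, and Psma4, Psma6, Psma7 and the testis form Psma8 carried none. At Psma1 the ALKBH5-FLAG peak (chr7:114275728-114276335) stacked 13 fragments at a fold of 7.61, and the overlapping IgG peak (chr7:114275827-114276101) stacked 4 at a fold of 4.44. The ALKBH5-FLAG summit stood 72 bp upstream of the start of Psma1 and the IgG summit 154 bp downstream of it. Psma2 had a pileup of 11 and a fold of 7.41 at a summit 4 bp from its start, with no IgG peak. Psma3 had 2 ALKBH5-FLAG peaks. The taller (chr12:70974552-70975165, pileup 13, fold 7.78) had its summit 60 bp downstream of the listed start, which lies inside the gene at chr12:70974623. The other (chr12:70968199-70968539, pileup 7, fold 5.48) lay upstream of the annotated 5′ end of the gene at chr12:70969283. Psma5 had a pileup of 12 and a fold of 6.63. Among the 4, the pileups of 11 to 13 differ by less than their counting intervals.

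The beta ring was the sparsest class. None of the constitutive catalytic subunits Psmb5, Psmb6 and Psmb7 had a peak in either list, nor did the structural subunits Psmb2 and Psmb4, the immunoproteasome subunits Psmb8 and Psmb10 or the thymus form Psmb11. Psmb1 had a weak peak (pileup 7, fold 4.40). At Psmb3 the pileup was 17 but the fold 4.69, which together imply a local background of 2.84 fragments, the highest among the proteasome genes. Psmb9, the immunoproteasome subunit that takes the place of Psmb6, carried the ALKBH5-FLAG peak of highest fold of all members (chr17:34187332-34187890), with a pileup of 19, an interval of 11.4 to 29.7 and a fold of 9.62. Its −log10 q was 13.6, and no IgG peak was listed there. This peak ended 2 bp short of the start of Psmb9. It reached into Tap1, the neighbouring gene on the other strand that encodes a subunit of the peptide transporter of antigen presentation, and its summit stood 448 bp from the start of Psmb9 and 222 bp from that of Tap1.

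The base had the highest share of genes with a peak. Of its ATPases, Psmc3, Psmc4, Psmc5 and Psmc6 had an ALKBH5-FLAG peak, and Psmc1 and Psmc2 had no peak in either list. Psmc3 had a pileup of 10 and a fold of 6.79 in ALKBH5-FLAG (chr2:91053493-91053698) and a pileup of 5 and a fold of 5.14 in IgG (chr2:91053734-91053960), at sites that lay side by side without a shared base. Psmc4 had a pileup of 8 and a fold of 6.34 with its summit 16 bp upstream of the start. Psmc5 (pileup 7, fold 4.82) and Psmc6 (pileup 8, fold 6.08) had summits 46 and 516 bp upstream of theirs. All 3 non-ATPase genes of the base were marked. The scaffold gene Psmd1 had a pileup of 12 and a fold of 6.84, and Psmd4, which encodes a ubiquitin receptor, a pileup of 6 and a fold of 5.30. The other scaffold gene, Psmd2, held 2 ALKBH5-FLAG peaks of equal height (pileup 8, fold 5.70), at chr16:20651470-20651669 and chr16:20651844-20652105. An IgG peak (pileup 4, fold 4.36) at chr16:20651737-20651934 overlapped the second.

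In the lid, Psmd3, Psmd7, Psmd11, Psmd12, Psmd13 and Psmd14 had ALKBH5-FLAG peaks, and Psmd6 and Psmd8 had none in either list. Psmd11 led by fold, at 7.83 with a pileup of 12 (chr11:80428549-80429227), followed by Psmd3 at 6.67 with a pileup of 13. Psmd12 had a pileup of 10 and a fold of 6.55 in ALKBH5-FLAG (chr11:107479327-107479850), and a pileup of 4 and a fold of 4.44 in IgG (chr11:107479445-107479697), the IgG peak lying wholly within the ALKBH5-FLAG peak. The other 5 marked lid genes had no IgG peak. Psmd13 had a pileup of 9 and a fold of 6.49. Psmd14, the deubiquitinase of the lid, and Psmd7, which pairs with it, both had a pileup of 9 and a fold of 5.68. The lid pileups of 9 to 13 lie within one another's counting intervals.

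Among activators, Psme2, Psme3 and Psme4 had an ALKBH5-FLAG peak. Psme2 encodes the beta subunit of the interferon-inducible activator PA28, and its ALKBH5-FLAG peak (chr14:55591070-55591762) had a pileup of 21 and a fold of 8.87, the tallest at any member. An overlapping IgG peak (chr14:55591025-55591361) had a pileup of 6 and a fold of 5.04. The ALKBH5-FLAG summit was 368 bp upstream of the Psme2 start and 273 bp from the start of Rnf31, on the other strand, which encodes the catalytic subunit of the linear ubiquitin ligase. The IgG summit lay 77 bp from the Psme2 start and 564 bp from that of Rnf31. Psme1, the alpha subunit of the same activator, had no peak in either list, nor had Psme2b, a near copy of Psme2. How surely reads are placed between Psme2 and its copy was not examined. Psme3, the nuclear PA28 gamma, had a pileup of 12 and a fold of 6.91. Psme4, which encodes the activator PA200, had a pileup of 7 and a fold of 5.56 at a summit 639 bp downstream of the start. The gene of the proteasome inhibitor PI31, Psmf1, had a pileup of 6 and a fold of 5.07 at a summit 30 bp upstream of its listed start. None of Psme3, Psme4 and Psmf1 had an IgG peak.

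The assembly chaperones were mixed in height. Psmg2, a chaperone of the alpha ring, had a pileup of 17 and a fold of 8.74, next after Psmb9 and Psme2 by fold, with no IgG peak. Its partner Psmg1 had a pileup of 10 and a fold of 6.79 at a summit 21 bp from the start, and Psmg3 and Psmg4 had no peak in either list. The 3 base chaperones had lower folds. Psmd5 had its ALKBH5-FLAG peak (chr2:34861376-34862027, pileup 8, fold 5.92) inside the gene, 9217 bp downstream of the start, over an IgG peak (chr2:34861530-34861928, pileup 6, fold 5.99). This IgG peak had the highest IgG fold at any member. Psmd9 had an ALKBH5-FLAG peak (pileup 7, fold 5.06) 8 bp from its start and a separate IgG peak (pileup 5, fold 5.14) 19348 bp downstream. Psmd10, the gene of gankyrin, had the weakest ALKBH5-FLAG peak of all (pileup 4, fold 4.03). Of the interacting proteins, Psme3ip1 had a pileup of 13 and a fold of 6.73 in ALKBH5-FLAG, and of 4 and 3.93 in an overlapping IgG peak. The meiotic recombination factor Psmc3ip had no peak in either list.

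**Figure D3:**
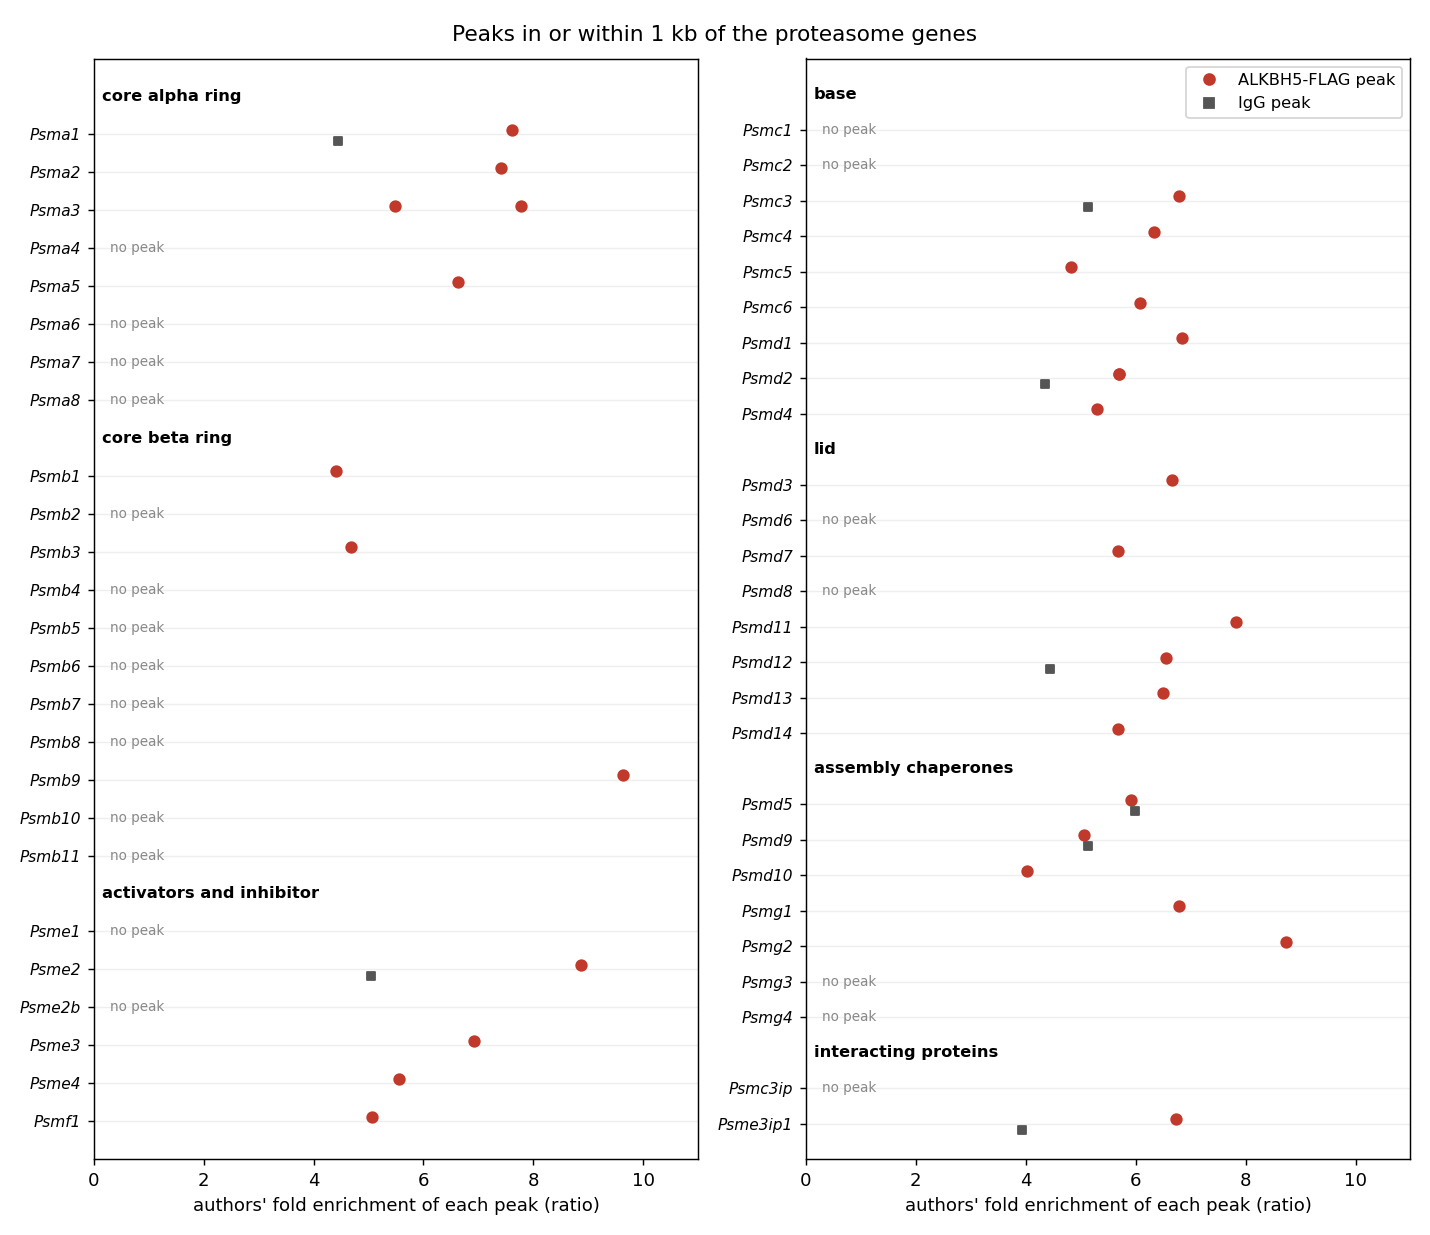
Authors' fold enrichment (horizontal axis, ratio) of every peak in or within 1 kb of each of the 51 genes, by class, ALKBH5-FLAG as circles and IgG as squares. Psmb9, Psme2 and Psmg2 have the highest ALKBH5-FLAG folds, at 9.62, 8.87 and 8.74, and the 2 peaks of Psmd2 coincide at 5.70.

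In all, 6 of the 32 ALKBH5-FLAG peaks at proteasome genes (18.8%) shared a base with an IgG peak, against 14.9% of all ALKBH5-FLAG peaks. With at least 50% of both peaks shared the count was 1 (3.12%), against 5.53%, and a count of 1 is too small to order these shares. The 6 peaks lay at Psma1, Psmd2, Psmd12, Psme2, Psmd5 and Psme3ip1. Their median pileup was 11.5, and that of the other 26 was 9. This split was not made over all ALKBH5-FLAG peaks, and the difference between 6 and 26 peaks was not tested. Seen from the IgG side, 6 of the 8 IgG peaks (75%) overlapped an ALKBH5-FLAG peak, against 54.6% of the whole IgG list. The lists hold the peaks that passed the authors' caller, so a gene with no IgG peak may still have IgG fragments.

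The ALKBH5-FLAG peaks lay mostly at the 5′ end. Within 1 kb of either end of the gene, an ALKBH5-FLAG peak was found at 28 of 51 proteasome genes (54.9%) and an IgG peak at 6 (11.8%), against 31.1% and 6.55% of all protein-coding genes. Transcription starts were listed for 43 of the 51 genes, those other than Psma8, Psmb1, Psmb2, Psmb7, Psmc3, Psmd3, Psmd7 and Psmg2. A summit within 500 bp of a start was found at 21 of the 43 for ALKBH5-FLAG (48.8%) and at 5 for IgG (11.6%), where all genes with a listed start gave 30.3% and 5.87%. Of the 25 with an ALKBH5-FLAG peak and a listed start, the 21 are 84.0%, close to the 76.3% of all such genes with a peak. Taking the peak nearest to the start in each of the 25, the median distance of the summit was 82 bp, 16 summits lay upstream and 9 downstream, and 18 peaks spanned the start. The distance, side and spanning were not computed for all genes with a peak and a listed start, so they are not set apart from the whole list. The summits outside 500 bp were at Psmc6 (516 bp upstream), Psmd10 (524 bp upstream), Psme4 (639 bp downstream) and Psmd5.

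**Figure D4:**
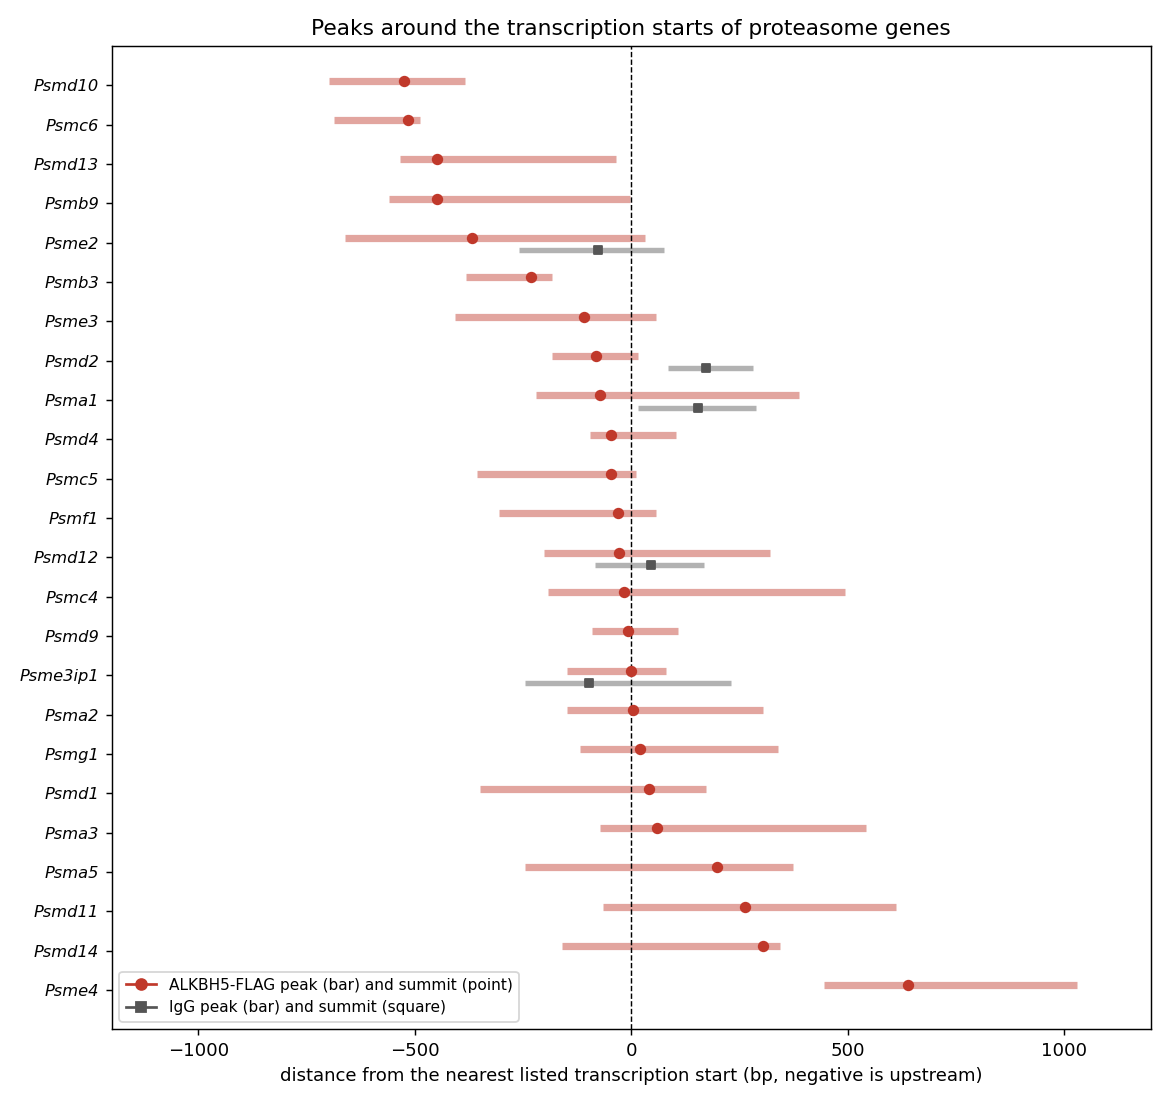
Extent (bars) and summit (points) of the ALKBH5-FLAG peak nearest to the start, and, below it, of IgG peaks near the start, against distance from the nearest listed transcription start in bp, negative upstream, for 24 members. Psmd5, at 9217 bp, is off the axis; most bars cross 0, and the summits run from 524 bp upstream at Psmd10 to 639 bp downstream at Psme4.

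Several of these peaks also lay at a neighbouring gene. Of the 32 ALKBH5-FLAG peaks, 9 (28.1%) also lay in or within 1 kb of another protein-coding gene, against 14.9% of the 9242 ALKBH5-FLAG peaks near any protein-coding gene. In 8 of the 9 both starts were listed and lay on opposite strands, and in 7 of these the listed starts were within 1 kb of each other. Strands and start gaps were not counted for other ALKBH5-FLAG peaks that lie at more than 1 gene. By the listed starts, the summit was nearer to the neighbour's start in 4 of the 8. These were Psmb9 with Tap1, Psme2 with Rnf31, Psmd13 with Sirt3 (449 bp from the Psmd13 start and 76 bp from the Sirt3 start) and Psmd10 with Atg4a (524 bp and 328 bp). In the other 4 the summit was nearer to the proteasome gene or to Psme3ip1. Psma2 with Mrpl32 had its summit 4 bp and 209 bp from the starts, and Psmc5 with Ftsj3 46 bp and 55 bp. Psmb3 with Pcgf2 had 232 bp and 3554 bp, and Psme3ip1 with Rspry1 1 bp and 214 bp. The listed Pcgf2 start (chr11:97699648) lies inside that gene, whose annotated 5′ end at chr11:97702434 is nearer to the Psmb3 peak. Listed starts of Sirt3 (chr7:140881869) and Atg4a (chrX:140956907) also lie inside their genes, whose annotated 5′ ends are at chr7:140882309 and chrX:140953845. Measured to that Atg4a end, the summit at chrX:140957235 is nearer to the Psmd10 start (chrX:140956711), so the order of this pair depends on the start used. The ninth, at Psmg2, was shared with Cep76. The 3 members of highest fold, Psmb9, Psme2 and Psmg2, were all among these shared sites, so their peaks cannot be assigned to the proteasome gene alone.

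Promoter composition and motifs were described in the same 300-base windows, of which there were 47 for proteasome genes and 21263 for all protein-coding genes. An ALKBH5-FLAG peak touched 22 of the 47 member windows, and 26.1% of all windows. The median GC content was 59.3% in the 22 and 54.7% in the other 25, against 63.3% and 53.3% for all windows with and without a peak. The core of the ETS factor site, CCGGAAG, was held by 17 of the 47 (36.2%) and by 11.6% of all windows. It stood in 8 of the 22 with a peak and in 9 of the 25 without, while over all windows it stood in 23.9% with a peak and 7.22% without. The antioxidant response element core TGACNNNGC, the kind of site that the Nfe2l1 product binds, was in 6 of 47 (12.8%), as in 13.0% of all windows, and the 6 were Psmb5, Psmb6, Psmc6, Psmd9, Psmd12 and Psme4. CCAAT was in 16 (34%, against 38.2%), the E-box CACGTG in 5 (10.6%, against 7.84%) and TATAAA in 4 (8.51%, against 12.6%). The palindromic nuclear respiratory factor 1 site was in 2, Psma2 and Psmg1 (4.26%, against 1.33%), and an ALKBH5-FLAG peak touched both windows. Over all windows that site stood in 2.86% with a peak and 0.789% without. Cores of interferon-linked elements were searched after the values at Psmb9 and Psme2 had been seen. AAANNGAAA, of the IRF element, was in 6 windows (12.8%, against 9.69%) and TTCNNNGAA, of the STAT element, in 3 (6.38%, against 7.69%), and neither was in the Psmb9 or Psme2 windows. All motifs were searched on both strands, and a match is letters in a window, not a bound site.

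Partners of the proteasome outside the symbol rule were counted as 1 list of 31 genes, 30 of which matched the annotation. They include subunits with other names, the core chaperone Pomp, ubiquitin genes, shuttle factors, deubiquitinases and regulators. An ALKBH5-FLAG peak was present at 24 of the 30 (80.0%) and an IgG peak at 8 (26.7%), where all protein-coding genes gave 39.2% and 10.8%. The difference from the 58.8% and 15.7% of the proteasome genes was not tested. Both subunits outside the rule were marked by ALKBH5-FLAG and not by IgG, Adrm1, a ubiquitin receptor (pileup 11, fold 4.20), and Sem1 (pileup 10, fold 6.63). Nfe2l1 held 4 ALKBH5-FLAG peaks, the highest by fold having a pileup of 21 and a fold of 6.51, and no IgG peak. Of the enzymes that process its product, the protease gene Ddi2 had a fold of 4.93 in ALKBH5-FLAG and 3.69 in a separate IgG peak, and the glycanase gene Ngly1 had no peak in either list. Nfe2l2, which encodes the related antioxidant factor NRF2, had a pileup of 43 and a fold of 7.86 in ALKBH5-FLAG, overlapping an IgG peak of pileup 8 and fold 5.13. The 5 highest ALKBH5-FLAG folds among the remaining partners were at Usp14, a deubiquitinase of the proteasome (9.47), the shuttle factor gene Rad23b (8.47), Fbxo7 (7.93), the segregase gene Vcp (7.20) and the ligase gene Ube3c (7.14). Usp14, Rad23b and Fbxo7 also had overlapping IgG peaks, with folds of 6.29, 5.32 and 4.61, and Vcp and Ube3c had none.

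Of 7 genes that define hepatocytes, among them Alb, Apoa1 and Ttr, none had a peak in either list. Of 5 markers of other liver cells, Col1a1 alone was marked by ALKBH5-FLAG, with 2 peaks, and none had an IgG peak. Over all protein-coding genes the shares were 39.2% for ALKBH5-FLAG and 10.8% for IgG, and these marker lists are too short to set against them. A peak list does not measure expression, so the cell label was not checked further.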

How the data were processed

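CUT&Tag peaks were taken from 1 ALKBH5-FLAG and 1 IgG library of Hepa1-6 cells, grouped by sample title. Tools credited in the submitters' processing notes are MACS2, Bowtie2 2.2.9, SAMtools 1.3.1 and R 3.4.1, on build GRCm38 (mm10). Their settings, and any use of IgG as control, are not stated there. The deposited pileup is a coverage signal, the deposited fold enrichment a ratio, and 2 further deposited columns, whose headers were lost, were taken as the −log10 p-value and the −log10 q-value by their place in the MACS2 layout. Coordinates are 1-based. Depth is unknown, as no read total was found.

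Genes came from the RefSeq table of GRCm38.p6, whose exons were not used here, and starts and strands from its promoter table. A gene was counted when a peak shared at least 1 base with it or lay within 1 kb. Counts were made with Python 3.11.15 and pandas 2.3.3, Poisson intervals with SciPy 1.17.1, after the counting was tested on simulated data. The local background was computed as pileup plus 1 over fold, minus 1. All members were named, by class; the partners named were Adrm1, Sem1, Nfe2l1, Nfe2l2, Ddi2, Ngly1 and the 5 others of highest fold. Members, classes and lists were chosen with earlier results of these data known. Alternatives were a −log10 q or fold of 5 or more, other windows and overlaps, and removal of shared peaks.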

Additional observations from a re-analysis of the deposited data

How the results depend on the processing

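At a −log10 q of 5 or more, 19 proteasome genes had an ALKBH5-FLAG peak (37.3%, against 23.7% of all genes) and 18 had one at a gene end (35.3%, against 19.3%), while 1 had an IgG peak (1.96%, against 2.89%). At a fold of 5 or more, 4 had an IgG peak (7.84%, against 5.52%) and 26 an ALKBH5-FLAG peak (51%, against 31.4%). Genes with an ALKBH5-FLAG peak numbered 31 with a 3 kb window (60.8%, against 41.3%) and 24 with no window (47.1%, against 36.1%). They numbered 25 without the peaks shared with IgG (49%, against 33.7%). Without Psmc3ip and Psme3ip1 they were 29 of 49 (59.2%, against 39.2%). At a pileup of 8 or more they numbered 23 (45.1%, against 28.9%). These last 2 settings were added after the data were seen. The ALKBH5-FLAG share of the proteasome genes stayed above that of all genes counted in the same way in each alternative run. Partner genes with an ALKBH5-FLAG peak numbered from 17 at a −log10 q of 5 or more (56.7%, against 23.7% of all genes) to 25 with a 3 kb window (83.3%, against 41.3%). Of the 6 ALKBH5-FLAG peaks overlapping an IgG peak, 1 had at least 50% of both peaks shared (3.12% of member peaks, against 5.53% of all). With both lists limited to that −log10 q, 0 of 19 member peaks shared any base with an IgG peak, against 10.6% of all ALKBH5-FLAG peaks. That setting leaves fewer IgG peaks. At proteasome genes it left 1 IgG peak, at Psmd5 (−log10 q 5.05), and the ALKBH5-FLAG peak over it fell just below the cut (4.89). The 0 is therefore too small a count to order these shares. No paired analysis was possible because each group has 1 library. Pileups of 4 to 21 fragments limit any ranking of single genes.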
